A study of Mus musculus with 8 samples.

Results

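Complement genes were followed across the cell classes of mouse colon tumours. The set was C3, C4b, Cfb, Serping1, C1qa, C1qb, C1qc, C3ar1 and C5ar1. They were chosen by symbol, without use of their levels, and make up 9 of the 20275 gene symbols listed. Single cells had been index-sorted into 384-well plates for SORT-seq, a plate method in which the 3′ end of each transcript is counted with a unique molecular identifier (UMI). The 8 plates held 1 mouse each, 4 FibCtrl and 4 FibΔZeb1 (written Fib-Del in the labels), so the plate was the replicate. The genotype was Zeb1Fib-deleted with a Cre-ERT2 transgene in the FibΔZeb1 mice, and Zeb1Fib-Ctrl without that transgene in the FibCtrl mice, and all mice of both groups received a tamoxifen diet. The labels write the transgene as Col1a1Cre-ERT2, whereas the tamoxifen-inducible line in the methods of the study is Col1a2-CreERT2, so the collagen promoter that drives it is written in more than one way. A Cre transgene of the host acts in host cells that express it, and the transplanted tumour cells do not carry it. The tumours had grown from genetically altered colon organoids placed in the wall of the cecum. Strain and age were not given in the labels.

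Complement is a cascade of plasma and tissue proteins that marks cells and debris for uptake and calls in leukocytes. C1q, built from the chains of C1qa, C1qb and C1qc, starts the classical pathway by binding antibody or altered surfaces, C4b (the mouse gene for C4) carries it on, and Cfb (factor B) drives the alternative pathway. Both pathways meet at C3, the protein whose fragments coat targets. Serping1 encodes the C1 inhibitor, which blocks the proteases attached to C1q. C3ar1 and C5ar1 encode the receptors for the released peptides C3a and C5a and are known from myeloid cells. Liver makes most plasma complement, while macrophages are the classical source of C1q and fibroblasts a local source of several early components.

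Of the members, 3 lie on chromosome 17 and 3 on chromosome 4, all on the minus strand (GENCODE M21, GRCm38). C3 is at chr17:57203970-57228136. C4b (chr17:34728380-34743882) and Cfb (chr17:34856374-34862518) are 112 kb apart. C1qa (chr4:136895917-136898803), C1qc (chr4:136889804-136893065) and C1qb (chr4:136880129-136886187) span 18.7 kb. Serping1 is at chr2:84765387-84775444, C3ar1 at chr6:122847138-122856161 and C5ar1 at chr7:16246743-16259540. Counts of C4b cannot be separated with certainty from those of its near-identical neighbour C4a, and the annotated gene Gm20547 overlaps Cfb, so the values of both are uncertain to that extent.

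The promoters of 4 members are shown because C1qb and C1qc moved together between macrophages and C5ar1 was shared by macrophages and neutrophils. C3 was added since its mean was highest in mesothelial and matrix fibroblast wells, with neutrophils next. Each is the RefSeq sequence of GRCm38.p6 from 250 bases before to 50 bases after the start, minus strand, 5′ to 3′, at chr4:136886151-136886450 (C1qb), chr4:136892865-136893164 (C1qc), chr7:16259289-16259588 (C5ar1) and chr17:57228087-57228386 (C3). Capitals mark matches to the motifs searched.
C1qb: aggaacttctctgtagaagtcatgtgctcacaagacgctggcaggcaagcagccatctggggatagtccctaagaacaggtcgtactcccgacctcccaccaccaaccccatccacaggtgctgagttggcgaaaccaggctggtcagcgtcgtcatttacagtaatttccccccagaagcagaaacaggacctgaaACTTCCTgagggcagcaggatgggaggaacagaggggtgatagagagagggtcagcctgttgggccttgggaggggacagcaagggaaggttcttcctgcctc
C1qc: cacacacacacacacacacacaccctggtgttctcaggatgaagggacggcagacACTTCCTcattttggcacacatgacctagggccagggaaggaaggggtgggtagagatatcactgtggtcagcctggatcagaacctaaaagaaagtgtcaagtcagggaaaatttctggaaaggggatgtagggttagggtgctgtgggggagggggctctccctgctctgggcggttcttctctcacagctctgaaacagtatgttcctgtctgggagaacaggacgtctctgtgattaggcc
C5ar1: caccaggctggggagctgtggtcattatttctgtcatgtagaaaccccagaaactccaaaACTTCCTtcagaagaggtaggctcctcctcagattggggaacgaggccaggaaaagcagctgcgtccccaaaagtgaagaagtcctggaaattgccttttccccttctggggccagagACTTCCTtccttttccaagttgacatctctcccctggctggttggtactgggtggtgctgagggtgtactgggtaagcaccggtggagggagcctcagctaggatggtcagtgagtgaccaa
C3: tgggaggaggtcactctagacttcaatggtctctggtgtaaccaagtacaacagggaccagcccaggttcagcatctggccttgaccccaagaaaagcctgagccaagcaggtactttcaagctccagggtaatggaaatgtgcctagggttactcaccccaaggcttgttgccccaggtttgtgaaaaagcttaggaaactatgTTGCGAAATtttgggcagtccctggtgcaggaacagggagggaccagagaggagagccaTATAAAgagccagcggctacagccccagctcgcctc
Of the 9 members, 5 had an entry (these 4 and C3ar1). AGGAAGT, a core bound by PU.1 and other ETS factors, was searched on both strands like the others and stood, as ACTTCCT, 1 time in C1qb, 1 time in C1qc and 2 times in C5ar1. It was in 3 of the 5 promoters and in 9.35% of all 32851 promoters of this length. TTNNGNAAT, a form of the C/EBP motif, was in 1 of the 5 (C3), against 11.5% of all, and TATAAA was in 2 (C3 and C3ar1), against 13.6%. TGANTCA (AP-1) was in 1 (C3ar1), against 7.81%. The NF-kB motif was in 0 of 5, against 0.411%. These are letter matches and not measured sites.

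Of 3072 wells, 1831 passed the filters and 1339 of these fell in 20 named clusters, the other 492 wells being in 5 clusters whose markers did not meet the naming rules. Depth differed between plates, from 981881 transcripts on FibCtrl replicate 2 (median 221 per well) to 5905190 on FibCtrl replicate 1 (median 3518 per well). The 384 well numbers recur on every plate and are positions, so no cells were shared. Zeb1 in fibroblast wells, the check of the genotype, was 92.5 and 81.7 transcripts per 1e+06 of the summed wells (CPM) in FibCtrl replicates 1 and 4 against 44.2, 37.5 and 28.3 CPM in FibΔZeb1 replicates 1, 3 and 4. It was at 0 in the 9 fibroblast wells of FibCtrl replicate 3, where counting error allows up to 50.4 CPM. Zeb1 was also at 0 in the 3 fibroblast wells of FibCtrl replicate 2 (up to 46.2 CPM). In the 6 of FibΔZeb1 replicate 2 it was 44.0 CPM, from 3 transcripts. Fibroblasts were split into a matrix class (63 wells, led by Dpt, Dcn and Lum) and a contractile class (73 wells, led by Col8a1, Tnc and Tagln). The other classes used most were mesothelial (38 wells), macrophage (173), neutrophil (256), T cell (143) and epithelial (308). Mesothelial wells held fibroblast markers too, at a summed 46183 CPM against 76571 CPM in fibroblast wells. CPM below is a level, the transcripts of a gene per 1e6 transcripts of the class on a plate, and means are given ± SD over plates with at least 5 wells of the class. No complement gene was used to build the classes, but the classes rest on other genes of the same wells.

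Most transcripts of C3, C4b, Cfb and Serping1 were in stromal wells and most of C1q and the receptors in myeloid wells, with C4b and Cfb in both. Matrix fibroblast and mesothelial wells held 44.9% and 29.6% of the C3 transcripts of all kept wells, 49.9% and 10.1% of C4b, 29.8% and 30.1% of Cfb, and 41.2% and 11.4% of Serping1. Contractile fibroblast wells held a further 15.7% of Serping1, and macrophage wells held 20.5% of C4b and 20.4% of Cfb. Macrophage wells held 91.0% of C1qa, 81.4% of C1qb, 87.6% of C1qc and 89.5% of C3ar1. C5ar1 was divided between macrophage (56.2%) and neutrophil wells (31.7%). These shares depend on how many wells each sort gate was given, which the levels per class do not.

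**Figure D1:**
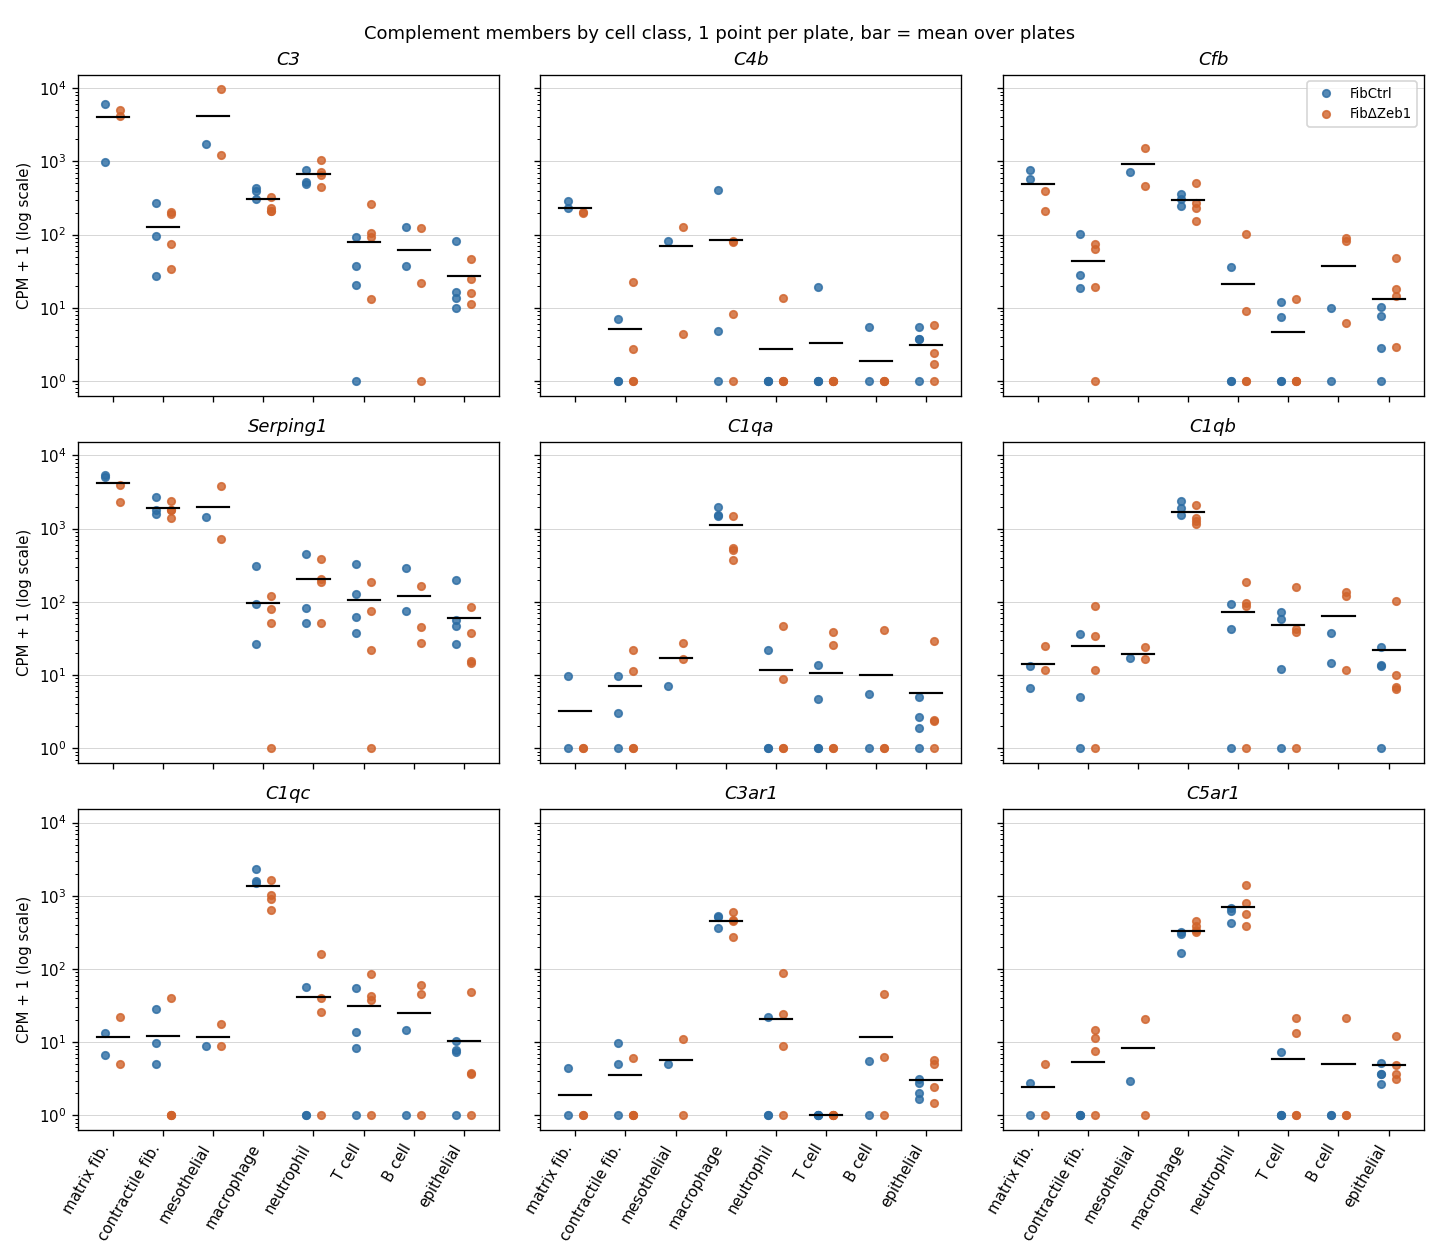
Level of each member by cell class on a log scale of CPM + 1, with 1 point per plate of at least 5 wells of the class, blue for FibCtrl and orange for FibΔZeb1, and a bar for the mean over plates. C3, C4b, Cfb and Serping1 were at their highest mean in matrix fibroblast or mesothelial wells, C1qa, C1qb, C1qc and C3ar1 in macrophage wells, and C5ar1 in neutrophil wells.

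Within fibroblasts, C3, C4b and Cfb belonged to the matrix class, and Serping1 was high in both. C3 was 4128 and 4999 CPM in the matrix wells of FibΔZeb1 replicates 3 and 4 and 5990 and 966 CPM in those of FibCtrl replicates 1 and 4, so that 3 plates were close and FibCtrl replicate 4 was low. In contractile wells it was 203, 73.9, 32.8 and 191 CPM in FibΔZeb1 replicates 1 to 4 and 268, 95.7 and 26.2 CPM in FibCtrl replicates 1, 3 and 4. The matrix and contractile values did not overlap. On the 4 plates with both classes, C3 was higher in matrix wells on 4 of 4, by 5.25 on the log2 scale (SE 0.43, edgeR quasi-likelihood test with the plate as a block, adjusted p = 1.2e-04).

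C4b was 198 and 201 CPM in the matrix wells of FibΔZeb1 replicates 3 and 4 and 230 and 291 CPM in those of FibCtrl replicates 1 and 4, the narrowest spread of these members. In contractile wells its mean was 4.13 ± 7.84 CPM (n = 7), which on the shared plates rests on 5 transcripts against 375 in matrix wells. The log2 difference was 5.27 (SE 0.55, edgeR, adjusted p = 3.2e-04). Cfb was 210, 398, 581 and 754 CPM in the same order of matrix plates and at most 101 CPM in contractile wells, a log2 difference of 3.50 (SE 0.54, edgeR, adjusted p = 0.0032). These 3 of the 4 members tested passed, all higher in matrix wells, against 5.79% of 3628 genes called higher, 2.95% called lower and 8.74% in either direction. The median log2 difference was 4.38 over the 4 members and -0.01 over all genes tested. C4b passed the expression filter through matrix wells, which set its direction. The members not tested were too low in both classes to pass it. The count and the median therefore describe the members tested.

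Serping1, the C1 inhibitor, was the exception. It was 2303 and 3958 CPM in the matrix wells of FibΔZeb1 replicates 3 and 4, 5001 and 5398 CPM in those of FibCtrl replicates 1 and 4, and 1925 ± 466 CPM in contractile wells (n = 7, range over plates 1378 to 2721). The groups overlapped, and the log2 difference of 1.16 (SE 0.35, higher on 3 of 4 plates) missed the threshold in edgeR (adjusted p = 0.076). It passed in DESeq2 (adjusted p = 0.045), without the expression filter (0.0024), without the plate as a block (0.035) and without FibΔZeb1 replicate 3 (0.028). Pericyte wells held 1636 ± 251 CPM of Serping1 (n = 2).

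The fibroblast classes differed in the balance of these genes as well as in level. There were 0.803 C3 transcripts per Serping1 transcript in matrix wells, 0.145 in contractile wells and 1.91 in mesothelial wells. Among the 63 matrix wells, the Spearman correlation over wells was 0.68 between C4b and Cfb, 0.60 between C3 and Serping1, 0.59 between Cfb and Serping1 and 0.29 between C3 and C4b. Among the 73 contractile wells no pair of these genes exceeded 0.25. These are descriptions over wells that share plates and differ in depth, and counts were low in contractile wells.

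**Figure D2:**
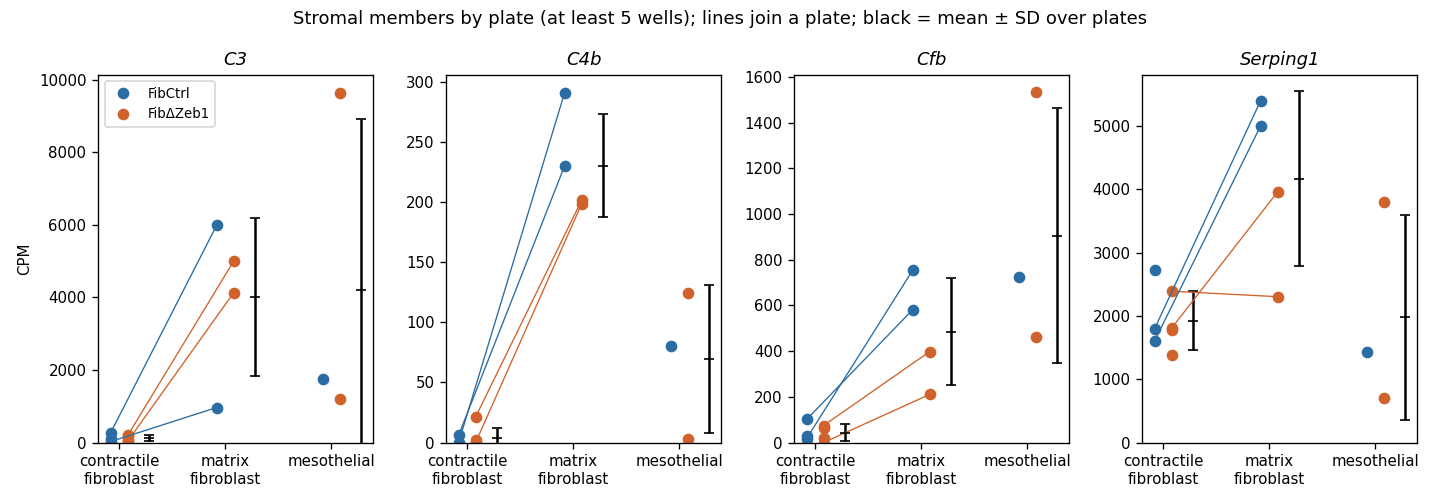
Levels of C3, C4b, Cfb and Serping1 on each plate in matrix fibroblast, contractile fibroblast and mesothelial wells, as CPM. Points are plates with at least 5 wells, coloured by genotype, lines join the fibroblast classes of a plate, and black marks give the mean ± SD, clipped at 0. C3, C4b and Cfb of the matrix plates lay above every contractile plate, whereas Serping1 of both fibroblast classes overlapped.

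Mesothelial cells, which line the serosa, carried C3 at levels that overlapped those of matrix fibroblasts, and the highest mean Cfb. Of Cfb they held 461 CPM on FibΔZeb1 replicate 2, 1533 CPM on FibΔZeb1 replicate 4 and 724 CPM on FibCtrl replicate 3. C3 was 1206, 9631 and 1750 CPM on these plates, Serping1 711, 3796 and 1422 CPM and C4b 3.34, 125 and 80.1 CPM. FibΔZeb1 replicate 4 was the highest plate for all 4 genes, and it decides their spread. Against fibroblast wells of the same 3 plates Cfb was higher on 3 of 3, by 3.46 on the log2 scale (SE 0.64, edgeR, adjusted p = 0.045). It was the 1 member of 4 tested to pass, against 0.557% of 3589 genes called higher and 1.2% in either direction. This call was lost without each of the 3 plates (adjusted p 0.15 to 0.25), without the plate as a block (0.21) and with classes from marker sums (0.54).

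C3 was 2.53 higher on the log2 scale in mesothelial wells (SE 0.57) and did not pass in edgeR (adjusted p = 0.070), although it did in DESeq2 (0.0057), without the expression filter (5.3e-04) and with classes from marker sums (0.032). C4b and Serping1 differed by -0.43 (SE 1.01) and -0.79 (SE 0.46). The fibroblast wells of these plates were mostly contractile on 2 of the 3 (0 of 9 matrix wells on FibCtrl replicate 3 and 1 of 6 on FibΔZeb1 replicate 2), and 9 of 15 were matrix on FibΔZeb1 replicate 4. In the order of mean C3, mesothelial (4196 ± 4715 CPM, n = 3) and matrix fibroblast wells (4021 ± 2174 CPM, n = 4) did not differ beyond their spread. Over the 38 mesothelial wells, C3 correlated with Serping1 at 0.81 and with Cfb at 0.68.

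Among myeloid cells, C1q marked macrophages. C1qa was 1482, 514, 537 and 377 CPM in the macrophage wells of FibΔZeb1 replicates 1 to 4 and 1526, 1466 and 1979 CPM in those of FibCtrl replicates 1, 3 and 4. C1qb was 1683 ± 466 CPM (n = 7, lowest 1153, median 1556, highest 2366) and C1qc 1366 ± 562 CPM (lowest 636, median 1478, highest 2310). C1qa varied most, with 3 FibΔZeb1 plates at or below 537 CPM and the other 4 plates at or above 1466 CPM. On FibΔZeb1 replicate 2, which had 5 macrophage wells, all 17 C1qa transcripts came from 1 well. Its C1qb, C1qc and C5ar1 were also found in 1 well each. The next class was dendritic, at 121 ± 84.6 CPM of C1qa and 219 ± 103 CPM of C1qb (n = 2), below every macrophage plate. In fibroblast wells C1qa was 4.08 ± 4.99 CPM on the same 7 plates.

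Macrophage and fibroblast wells differed in most members. Of 9 tested on 7 plates, 5 were higher in macrophages, against 20.8% of 4338 genes, and 2 were lower, against 21.6% (42.4% in either direction). C1qa was higher by 7.73 on the log2 scale (SE 0.46, edgeR, adjusted p = 3.0e-09), C1qb by 6.40 (SE 0.48), C1qc by 6.72 (SE 0.40), C3ar1 by 7.11 (SE 0.36) and C5ar1 by 6.04 (SE 0.39), all on 7 of 7 plates. Serping1 was lower on 7 of 7, at -5.19 (SE 0.40, edgeR, adjusted p = 3.5e-08). The median was 6.04 over the 9 members and -0.04 over all genes. In fibroblast wells C1qa, C1qb, C1qc, C3ar1 and C5ar1 held 17, 87, 45, 9 and 12 transcripts over these plates. These 5 passed the expression filter through macrophage wells, which set their direction. Their count and this median are therefore descriptions.

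C3 was lower in macrophages than in fibroblasts (log2 difference -1.68, SE 0.61, edgeR, adjusted p = 0.037), on 5 of 7 plates. The exceptions were FibCtrl replicate 3 and FibΔZeb1 replicate 2, whose fibroblast wells were 0 of 9 and 1 of 6 matrix. The call was lost without FibΔZeb1 replicate 3 (0.13), FibΔZeb1 replicate 4 (0.11) or FibCtrl replicate 1 (0.090). C4b (-0.90, SE 0.94) and Cfb (0.58, SE 0.49) did not pass. Macrophages carried Cfb at 295 ± 111 CPM (n = 7) beside 486 ± 234 CPM in matrix wells (n = 4), and these ranges overlapped.

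The macrophage wells fell into 3 clusters that differed in pooled C1q and C4b. Cluster 1 (109 wells, led by Lyz2, Mrc1 and Apoe) held 1476 CPM of C1qa, 2117 CPM of C1qb and 1719 CPM of C1qc. Cluster 2 (43 wells, led by Mmp12, Arg1, Msr1 and Gpnmb) held 374, 545 and 348 CPM, and cluster 3 (21 wells, led by Saa3, Serpinb2, Alox15 and Prg4) held 923, 1256 and 1277 CPM. All 3 chains were lowest in cluster 2 when plates were pooled. On the 4 plates with at least 5 wells of both, C1qa was 2195, 2196, 1608 and 700 CPM in cluster 1 and 1026, 417, 437 and 105 CPM in cluster 2 (FibCtrl replicates 3 and 4, FibΔZeb1 replicates 1 and 3), lower in cluster 2 on each. Cluster 3 had at least 5 wells only on FibCtrl replicate 3, where its C1qa (949 CPM) was close to that of cluster 2. Pooled C3ar1 was 452, 424 and 396 CPM and pooled C3 296, 257 and 271 CPM in clusters 1, 2 and 3, but the plates did not share these levels. On FibCtrl replicate 3, C3 was 742 CPM in cluster 1 and 98.3 CPM in cluster 3, and C3ar1 was 175, 718 and 438 CPM in clusters 1, 2 and 3. None of this was tested, since clusters were made from the same wells. Cluster 2 was shallower than the others (median 2571 transcripts per well, against 10738 and 6109).

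C4b in macrophages came mainly from cluster 3, with 147 of 165 transcripts. It was 10.3 CPM in cluster 1, 20.2 CPM in cluster 2 and 798 CPM in cluster 3 (exact 95% Poisson interval 673 to 936 CPM). Of the 21 wells of cluster 3, 16 were on FibCtrl replicate 3, the plate with 412 CPM of C4b over its macrophage wells, and the other 6 plates held at most 80.7 CPM. The level rests mainly on 1 mouse. Cfb was 389 CPM in cluster 1, 336 CPM in cluster 3 and 70.6 CPM in cluster 2. C5ar1 was 345, 177 and 298 CPM in clusters 1, 2 and 3.

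**Figure D3:**
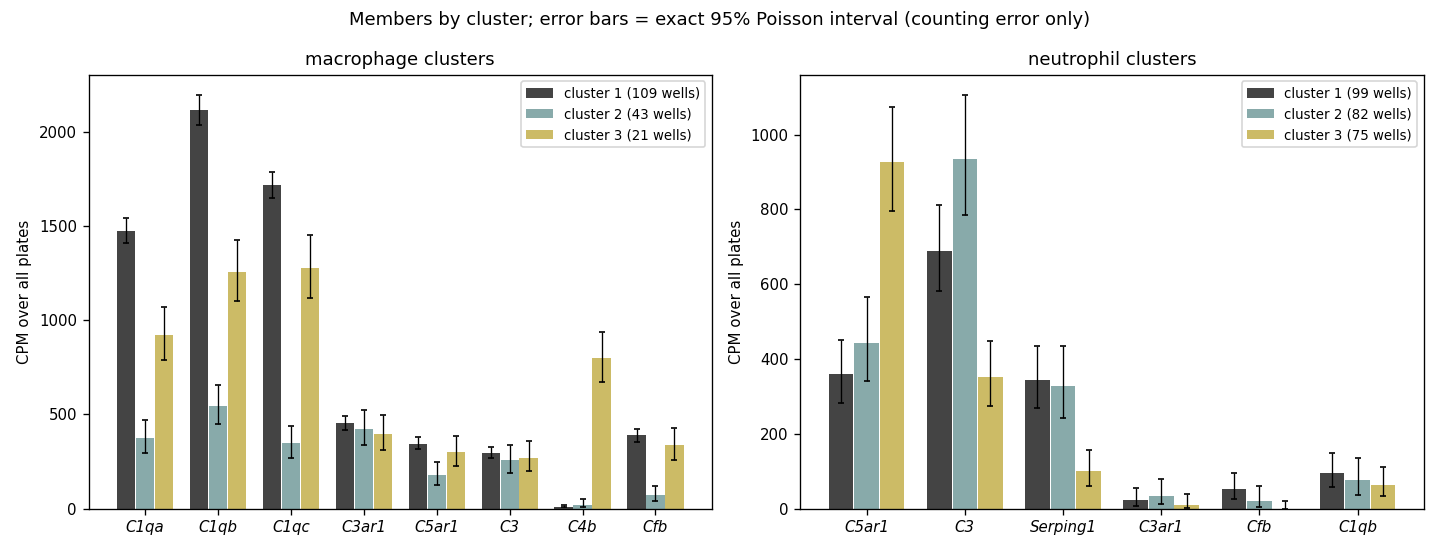
Levels of the members in the 3 macrophage and 3 neutrophil clusters, as CPM pooled over plates with exact 95% Poisson intervals (counting error only). C1qa, C1qb and C1qc were lowest in macrophage cluster 2 in these pooled values, C4b reached 798 CPM in macrophage cluster 3, and C5ar1 was highest in neutrophil cluster 3 at 927 CPM.

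Across the 173 macrophage wells the C1q chains followed each other. The Spearman correlation was 0.90 for C1qb with C1qc, 0.82 for C1qa with C1qc and 0.80 for C1qa with C1qb. With C3ar1 the chains correlated at 0.18 to 0.23 and with C3 at -0.17 to -0.11. Thinned to 1000 transcripts per well, 39.0%, 45.7% and 43.9% of 164 macrophage wells held C1qa, C1qb and C1qc (9 shallower wells left out, 56.6%, 66.5% and 64.2% before thinning). In T cells, which should lack C1q, the shares were 1.42%, 6.38% and 2.13%, and in neutrophils 0.858%, 9.01% and 4.29%. Median depths were 8505, 3282 and 1891 transcripts per well. The source of the C1qb in neutrophil wells was not tested.

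The peptide receptors differed in their cells. C3ar1 was 445, 605, 471 and 269 CPM in the macrophage wells of FibΔZeb1 replicates 1 to 4 and 512, 365 and 529 CPM in those of FibCtrl replicates 1, 3 and 4. In neutrophil wells it was 23.1, 0, 7.96 and 87.0 CPM in FibΔZeb1 replicates 1 to 4 and 0, 0 and 21.3 CPM in FibCtrl replicates 2, 3 and 4, so no plate overlapped. C5ar1 was 809, 1398, 390 and 560 CPM in neutrophil wells of FibΔZeb1 replicates 1 to 4 and 610, 679 and 418 CPM in those of FibCtrl replicates 2, 3 and 4. Its macrophage levels were 323, 454, 385 and 343 CPM in FibΔZeb1 replicates 1 to 4 and 162, 298 and 319 CPM in FibCtrl replicates 1, 3 and 4. Each of the other classes held a mean of at most 9.58 CPM of C5ar1. Among the neutrophil clusters, C5ar1 was 927 CPM in the cluster led by Retnlg, S100a8 and S100a9 (75 wells), 443 CPM in that led by Ccl3, Cxcl3 and Ccl4 (82 wells) and 359 CPM in that led by Mmp9, Siglec5 and Clec5a (99 wells).

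Of 8 members tested between neutrophils and macrophages on 6 plates, 3 were higher in neutrophils, against 20.8% of 2240 genes, and 5 were lower, against 22% (42.8% in either direction). C1qa (-6.37, SE 0.44), C1qc (-4.90), C1qb (-4.27), C3ar1 (-4.10, SE 0.49) and Cfb (-3.30, SE 0.49) were lower on 6 of 6 plates, the last with an adjusted p of 3.5e-05 in edgeR. Neutrophil wells held 6, 22, 42, 12 and 14 transcripts of them in this order. These 5 passed the expression filter through macrophage wells, which set their direction. C5ar1 was higher by 0.92 (SE 0.28, edgeR, adjusted p = 0.012) on 6 of 6 plates, a call lost without the expression filter (0.088) and without FibΔZeb1 replicate 1 (0.063). The median log2 difference was -3.70 over the 8 members and -0.03 over all genes.

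Neutrophils carried C3. It was 1042, 449, 645 and 721 CPM in the neutrophil wells of FibΔZeb1 replicates 1 to 4 and 764, 515 and 496 CPM in those of FibCtrl replicates 2, 3 and 4, all above the highest macrophage plate (438 CPM). On the 6 shared plates it was higher than in macrophages on 6 of 6, by 1.16 on the log2 scale (SE 0.29, edgeR, adjusted p = 0.0038). At 1000 transcripts per well, 36.1% of 233 neutrophil wells held C3 (exact 95% interval 29.9 to 42.6%, 50.8% before thinning), against 23.2% of macrophage, 4.96% of T cell, 7.09% of B cell and 2.61% of epithelial wells. C3 was 935 CPM in the neutrophil cluster led by Ccl3, 690 CPM in that led by Mmp9 and 353 CPM in that led by Retnlg. Over the 256 neutrophil wells C3 did not follow C5ar1 (Spearman -0.03).

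Other values stand beside that C3 level. The 10 fibroblast markers summed to 4467 CPM in neutrophil wells (1091 to 7105 CPM over plates, 10 of 10 detected), 2228 CPM in macrophage wells (772 to 6115) and 76571 CPM in fibroblast wells. Their part in the C3 of neutrophils was not tested. There were 2.50 C3 transcripts per Serping1 transcript in neutrophils and 3.32 in macrophages, against 0.803 in matrix fibroblasts, 0.359 in T cells and 0.434 in epithelial wells. Serping1 also passed as higher in neutrophils than in macrophages (1.86, SE 0.30, edgeR, adjusted p = 7.7e-05). At 1000 transcripts, however, 24.0% of neutrophil wells (18.7 to 30.0%) and 17.7% of T cell wells (11.8 to 25.1%) held it. On the plates with the most neutrophil wells, FibCtrl replicate 4 and FibΔZeb1 replicates 3 and 4, Serping1 was 446, 207 and 385 CPM in neutrophils and 129, 20.7 and 74.4 CPM in T cells. Over all plates with at least 5 wells, however, the classes overlapped. Neutrophil wells ranged from 49.9 to 446 CPM (n = 7) and T cell wells from 0 to 323 CPM (n = 8). The source of these transcripts was not tested.

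The rest of the pathway was read from 42 further complement genes, of which 40 were listed. Between matrix and contractile wells, 9 were tested and 4 were higher in matrix wells, against 5.79% of all genes. They were Cd55 (5.73), a surface regulator, C1ra (3.34) and C1s (2.55), the proteases of the C1 complex, and Clu (2.85), a soluble regulator. Against fibroblasts, 12 were tested in macrophages. Itgax (6.64), Itgam (6.28) and Itgb2 (4.84), chains of the integrin complement receptors, Cfp (properdin, 5.60) and Cd93 (4.99) were higher, and C1s (-5.30), C1ra (-3.16), Colec12 (-2.62) and Clu (-1.84) were lower, against 20.8% of all genes higher and 21.6% lower. C1q was high where the proteases that act with it were low. Against macrophages, 5 were tested in neutrophils, 0 were higher and Cd93 (-3.65) and Cfp (-2.58) were lower, against 20.8% and 22% of all genes. Against fibroblasts, 8 were tested in mesothelial wells and Clu was higher (4.99, edgeR, adjusted p = 0.0051), against 0.557% of all genes. All values in this paragraph are log2 differences that passed in edgeR.

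Over 56 sums of a class on a plate, from 12 classes, the genes most like a member were named from 11851 genes by Pearson correlation of log2 CPM, as a description. C3 was most like Dmkn (0.73), Osr1 (0.70), Igfbp6 (0.69), Gda (0.67) and C1ra (0.67), with C4b at rank 30 and Serping1 at rank 165. C4b was most like Dchs1 (0.76), Pltp, Gstt1 and Hmcn1 (0.74 each) and Adamts15 (0.73). C1qa was most like Aif1 (0.92), Mrc1 (0.91), C1qc (0.90), Tifab (0.89) and C1qb (0.88), with C3ar1 at rank 12. C5ar1 was most like Clec4d, Igsf6 and Tlr13 (0.94 each), Clec4e (0.93) and Slc11a1 (0.92). The sums of a plate share its library and depth.

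Tumour epithelium held little of these genes. C3 was 14.98, 10.2, 23.8 and 45.6 CPM in the epithelial wells of FibΔZeb1 replicates 1 to 4 and 80.1, 12.7, 9.01 and 15.7 CPM in those of FibCtrl replicates 1 to 4. On 7 plates with fibroblasts, 3 of the 4 members tested were lower in epithelial wells, against 19.1% of 8959 genes (20.7% higher, 39.8% in either direction). They were Serping1 (-6.34, SE 0.48), C3 (-5.64, SE 0.45, edgeR, adjusted p = 1.9e-07) and Cfb (-4.51, SE 0.75), while C1qb differed by -0.27 (SE 0.41) and did not pass. The median was -5.07 over the 4 members and 0.11 over all genes. Of 11 further complement genes, 8 were lower, among them C1s (-6.47), C1ra (-6.21), Colec12 (-5.94) and C2 (-5.91), and C1qbp, which encodes a mitochondrial protein able to bind C1q, was higher (1.12).

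Cfb was the exception within the epithelium, in 1 cluster. The 29 wells led by Clca6, Guca2a and Krt20, genes of differentiated colon epithelium, held 132 CPM of Cfb (48 transcripts, 97.2 to 175 CPM), against 2.87, 12.1 and 10.2 CPM in the other clusters, and 25 of these 29 wells were on FibΔZeb1 replicate 2. Another epithelial cluster (82 wells) was made up of 49 wells of FibCtrl replicate 1 and 33 of FibΔZeb1 replicate 1, the plates with the most Serping1 in epithelial wells (199 and 85.2 CPM, against 13.8 to 55.2 CPM). Fibroblast markers in epithelial wells were also highest on these plates, at 3934 and 2595 CPM against 390 to 1106 CPM. Their part in the C3 and Serping1 of epithelial wells was not tested.

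Between FibΔZeb1 and FibCtrl tumours, 0 of the members passed in any of the 4 classes compared, and DESeq2 also called 0. In fibroblast wells (FibCtrl replicates 1 and 4 against FibΔZeb1 replicates 1, 3 and 4) 5 members were tested, 2 had an unadjusted p under 0.05 and 1 of 8149 genes was called (0.0123%, higher, with 0% lower, and 413 genes at an unadjusted p under 0.05). Cfb was 61.9, 130 and 290 CPM in FibΔZeb1 replicates 1, 3 and 4 and 349 and 631 CPM in FibCtrl replicates 1 and 4. The groups did not overlap, the log2 difference was -1.65 (SE 0.57), and the adjusted p was 0.91 in edgeR. Serping1 did not overlap either, with 1298, 2336 and 3240 CPM against 3358 and 4797 CPM (-0.84, SE 0.40). By exact permutation, two-sided, both gave p = 0.2, the smallest that 2 against 3 plates allow, adjusted p = 0.56 over 14 such comparisons. Of these 14, 3 were without overlap. The share of all genes without overlap was not counted, so this is not read as a trait of the members.

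C4b was 4.42, 123 and 141 CPM in FibΔZeb1 replicates 1, 3 and 4 and 122 and 242 CPM in FibCtrl replicates 1 and 4 (-1.10, SE 0.90). C3 was 228, 2567 and 3396 CPM against 3223 and 809 CPM (0.02, SE 0.95), and the genotypes overlapped. Within flow cell 1 (replicate 1 of each genotype) FibΔZeb1 minus FibCtrl was -287 CPM for Cfb, -2060 CPM for Serping1, -117 CPM for C4b and -2995 CPM for C3. Within flow cell 2 it was -421, -2009, -110 and 2173 CPM. Cfb, Serping1 and C4b were lower in both, whereas C3 turned.

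The share of matrix wells also differed between these plates. It was 10%, 40% and 60% of fibroblast wells in FibΔZeb1 replicates 1, 3 and 4 and 58.1% and 76% in FibCtrl replicates 1 and 4. C3 rose with this share from 228 CPM on FibΔZeb1 replicate 1 to 3396 CPM on FibΔZeb1 replicate 4. On FibCtrl replicate 4, with the highest share, it was 809 CPM. Within matrix wells, 2 plates a genotype, the log2 differences were -1.15 for Cfb (SE 0.42, edgeR, adjusted p = 0.71), -0.74 for Serping1, -0.39 for C4b and 0.37 for C3. Within contractile wells they were -0.17 for Serping1 and -0.14 for C3. The matrix values were not balanced by flow cell. FibΔZeb1 replicates 3 and 4 (6 and 9 matrix wells) were both on flow cell 2. FibCtrl replicates 1 and 4 (25 and 19) were on flow cells 1 and 2. The part of the matrix share in the genotype values was not tested beyond this. C1qb in fibroblast wells was 84.0, 27.5 and 10.6 CPM against 4.86 and 16.0 CPM (2.12, SE 0.84, edgeR, adjusted p = 0.93), and the 10 macrophage markers there summed to 550, 158 and 336 CPM against 294 and 220 CPM.

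**Figure D4:**
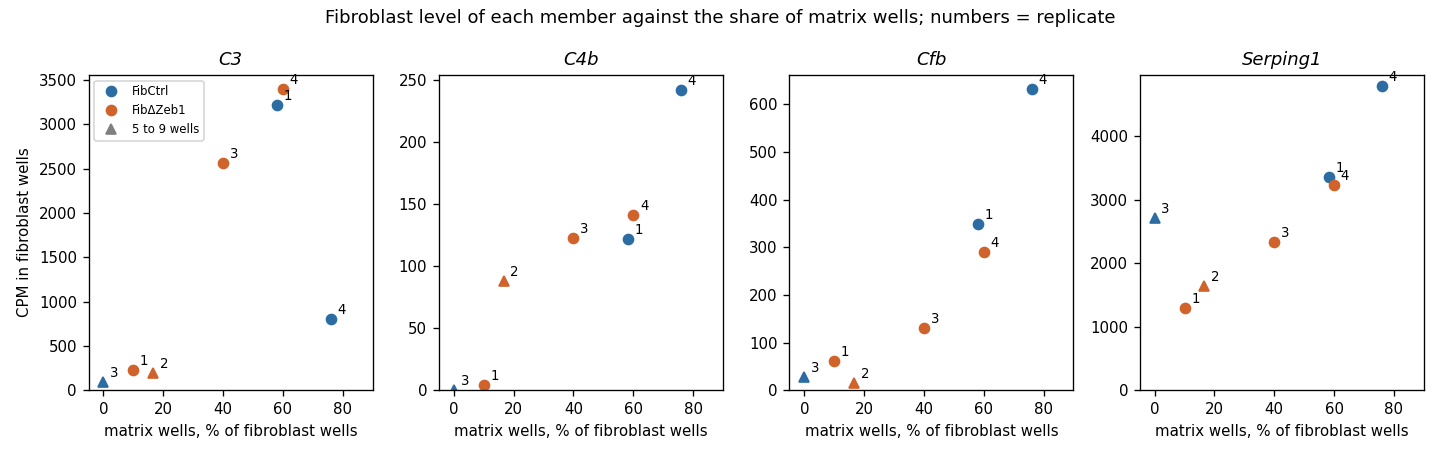
Share of fibroblast wells in the matrix class on each plate (percent, horizontal) against the level of C3, C4b, Cfb and Serping1 over all fibroblast wells of that plate (CPM, vertical), with triangles for plates of under 10 wells and numbers for the replicate. FibΔZeb1 replicate 1, with 10% matrix wells, held 4.42 CPM of C4b and 228 CPM of C3, and FibCtrl replicate 4, with 76%, held 242 CPM of C4b and 809 CPM of C3.

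In macrophage wells (replicates 1, 3 and 4 of both genotypes) all 9 members were tested, 1 had an unadjusted p under 0.05 and 0 of 4467 genes were called (0%, 165 genes at an unadjusted p under 0.05, and 1 gene, no member, by DESeq2). C1qa was 1482, 537 and 377 CPM in FibΔZeb1 against 1526, 1466 and 1979 CPM in FibCtrl (-1.04, SE 0.44, edgeR, adjusted p = 1.0). The groups overlapped through FibΔZeb1 replicate 1. C1qc differed by -0.60 (SE 0.29), C3 by -0.60 (SE 0.27) and C1qb by -0.30 (SE 0.28). Within flow cell 1 the difference in C1qa was -44.2 CPM and within flow cell 2 -1266 CPM. C5ar1 was 323, 385 and 343 CPM against 162, 298 and 319 CPM and did not overlap (0.39, SE 0.29, exact permutation p = 0.1, the smallest that 3 against 3 plates allow, adjusted 0.56). In the largest macrophage cluster alone the values were -1.19 for C1qa, -0.86 for C1qc, -0.52 for C1qb and 0.45 for C5ar1. There the C5ar1 groups overlapped, at 344 to 461 CPM in FibΔZeb1 and 166 to 402 CPM in FibCtrl.

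In neutrophil wells 3 members were tested and 0 called, against 1 of 1066 genes (0.0938%, lower, with 0% higher, and 40 genes at an unadjusted p under 0.05). C3 differed by 0.23 (SE 0.39), C5ar1 by 0.46 (SE 0.50) and Serping1 by 0.02 (SE 0.67). In epithelial wells of all 8 plates 4 members were tested and 0 called, against 0 of 10054 genes (0%, 116 at an unadjusted p under 0.05). Cfb was 17.4, 46.5, 1.91 and 13.4 CPM in FibΔZeb1 replicates 1 to 4 and 9.23, 0, 1.80 and 6.81 CPM in FibCtrl replicates 1 to 4 (1.86, SE 0.89, edgeR, adjusted p = 1.0). Without the Clca6 cluster, found mainly on FibΔZeb1 replicate 2, this value was 0.83. Of the further complement genes, 0 passed in any of the 4 classes (12, 9, 3 and 5 tested). The median change of the members tested was -0.84, -0.60, 0.23 and 0.41 in fibroblast, macrophage, neutrophil and epithelial wells, against 0.00, -0.02, 0.02 and 0.00 over all genes.

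**Figure D5:**
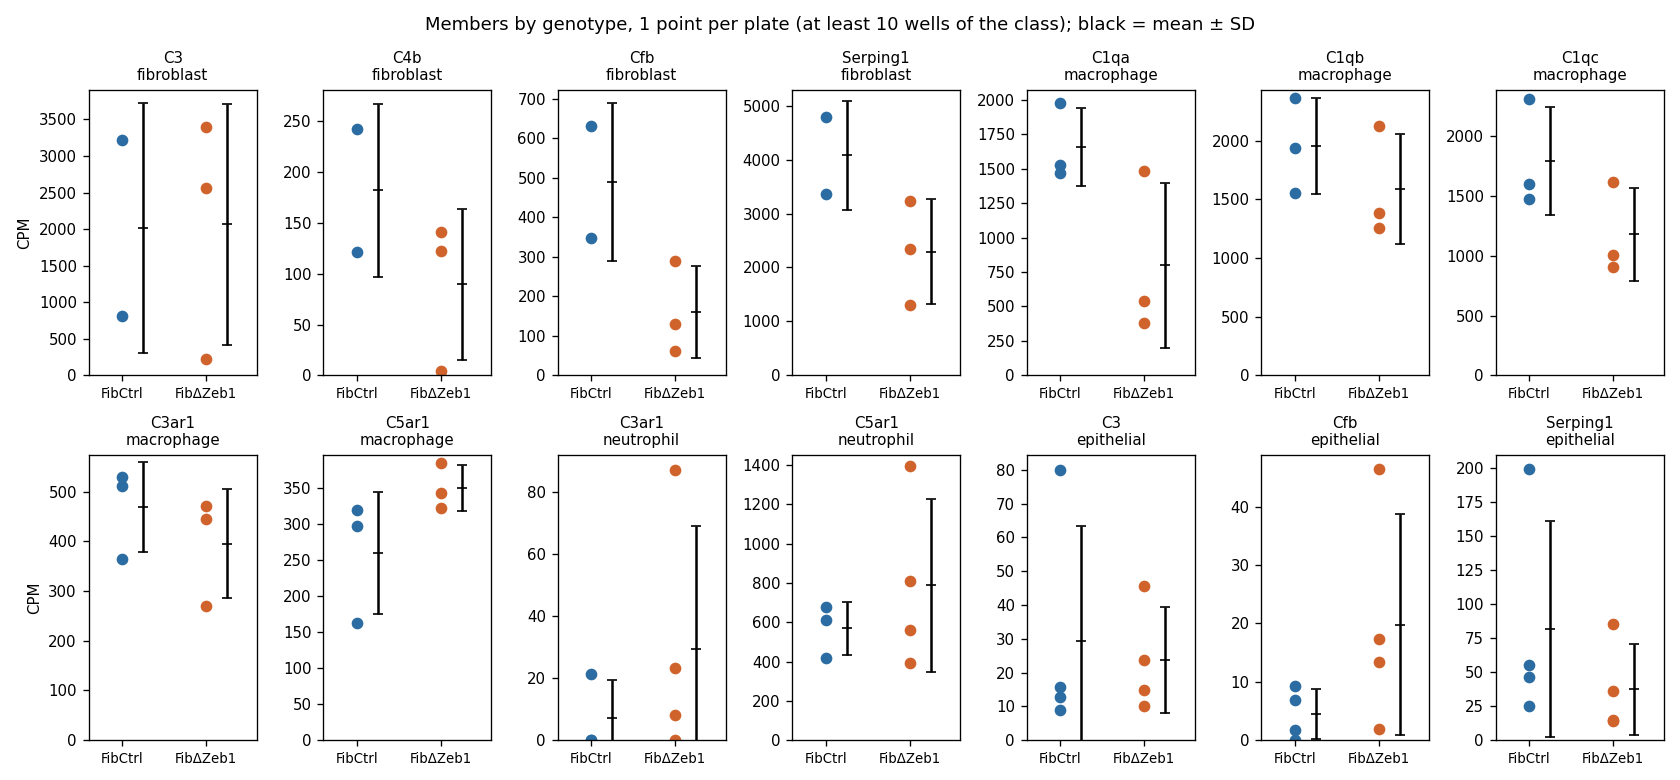
Levels of the members on each plate (CPM) in FibCtrl and FibΔZeb1 tumours, by class, with points for plates of at least 10 wells of the class and black marks for the mean ± SD, clipped at 0. Each of the 14 panels is 1 member in 1 class. Cfb and Serping1 in fibroblast wells and C5ar1 in macrophage wells did not overlap between genotypes, and the other groups overlapped. With so few plates, groups can separate by chance, and the share of all genes without overlap was not counted.

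These comparisons of genotypes rest on 2 to 4 mice a group, and a p that misses the threshold does not show that the genotypes were alike. All intervals cover counting error only.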

How the data were processed

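SORT-seq libraries were made with the CEL-Seq2 protocol from cells index-sorted as EPCAM+, CD45+ or negative for both and for CD31. According to the study's methods, bwa aligned the reads to the Ensembl transcriptome of GRCm38, and a script of the sequencing provider then counted the transcripts of every gene in every well. The submitters' processing notes also list Cell Ranger 2.1.1. The deposited values are estimated counts, which the authors' provider had corrected for UMI collisions, and 87.1% of values above 0 were exactly whole. Plates were not pooled or scaled to depth. The file names place replicates 1 and 2 of both genotypes on 1 flow cell and replicates 3 and 4 on another. A second table lists plates and genotypes in words and was not used. Files list only genes with a plate total of at least 1, so C1qb and C1qc, listed on 7 plates, were taken as 0 on the other. The number of columns without a sample was 0. Whether counting used the strand is not given in the sources used here.

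Spike-in and mitochondrial rows were left out of totals. Wells were kept with at least 500 transcripts and dropped where their share of mitochondrial transcripts lay over 3 median absolute deviations above the plate's median. For clustering, each well was brought to a total of 10000. Then 2000 variable genes, without the complement genes, gave 20 principal components and, with 15 neighbours, Leiden clusters at resolution 1 (Python 3.11.15, scikit-learn 1.9.0, leidenalg 0.10.2). A cluster was named from fixed markers with a score of at least 0.5 and at least 3 markers in 10% of its wells, a rule set with earlier results known, so names may differ from the study's. The gate of each well and the batch correction of the study (fastMNN) were not used here. No doublet caller was run, since 1 cell was sorted per well. Of 170 fibroblast wells, 34 with at least 2 Ptprc or Epcam transcripts were removed.

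Counts were summed per class and plate and rounded, over plates with at least 10 wells for genotypes and 5 for classes. The main test was edgeR 4.0.16 (R 4.3.3), quasi-likelihood with TMM scaling and its expression filter, adjusted by Benjamini-Hochberg over all genes at a threshold of 0.05, with the plate as a block between classes. The SE is the log2 change over the square root of F. Between classes, a gene nearly absent from either class passed the filter through the other, which set its direction. DESeq2 1.42.0, RLE scaling, no filter, the replicate block, the flow cell, other well filters, classes from marker sums and leaving out plates were alternatives. No cluster met the monocyte rule, so a planned contrast of monocytes with macrophages was not run. The step was tested on simulated counts. The genes named were all members, and of 42 further complement genes the up to 5 called with the largest log2 difference in each direction, of which 1 is not reported here. For C3, C4b, C1qa and C5ar1, the 5 genes of highest correlation were named. The members, lists and rules were chosen with earlier results of these data known. In the epithelial sums, deviations of same-numbered plates correlated at 0.15 to 0.57 in each of 4 pairs, although replicate 4 did not correlate best with its own number. The labels do not say whether a number marks a shared day or litter.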

Additional observations from a re-analysis of the deposited data

Results flagged for a closer look

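A single plate stood far from the other 3 of its genotype, by Dixon's test at 95%, in 2 of the 12 groups of 4 plates tested, and chance gives such a result in about 1 group in 20. C1qb in epithelial wells was 101 CPM on FibΔZeb1 replicate 1, against at most 9.05 CPM on the other FibΔZeb1 plates. The other C1q chains were high there too. C1qa was 28.4 CPM, against at most 1.45 CPM, and C1qc 47.3 CPM, against at most 2.86 CPM, on the same plates. The 10 macrophage markers in these epithelial wells summed to 628 CPM, against 111 to 215 CPM on the other 7 plates, and this plate held the most macrophage wells (56). C1qb was also highest on this plate in fibroblast wells (84.0 CPM) and in neutrophil wells (185 CPM).

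C3 in epithelial wells was 80.1 CPM on FibCtrl replicate 1, against at most 15.7 CPM on the other FibCtrl plates. The fibroblast markers in these wells summed to 3934 CPM, against 390 to 2595 CPM on the other plates, and this plate held the most fibroblast wells (43). The part of these markers in either value was not tested.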

How the results depend on the processing

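Without the expression filter, 2 members were called between genotypes in fibroblast wells (Cfb -1.69, adjusted p = 1.5e-04, and C1qb 2.09, adjusted p = 0.0091, edgeR), against 0 with it, and 268 genes in all against 1. DESeq2 called 27 genes there, the flow cell as a term gave 18, and leaving out plates gave 0 to 9. In macrophage wells no filter gave 39 genes against 0, and in neutrophil wells 18 against 1, or 6 without FibCtrl replicate 2. The count of 0 held in the other alternatives and in all of those for macrophage, neutrophil and epithelial wells. The genotype difference of C3 in fibroblast wells, 0.02, turned to -0.042 without the filter, -0.87 with the replicate block, -0.78 with the flow cell as a term, -0.13 without the mitochondrial filter and -0.14 in contractile wells alone, and ranged from -0.64 to 1.35 when plates were left out. In macrophage wells, classes from marker sums gave 0.037 for C1qb and 0.099 for C3ar1, and the largest cluster gave 0.029 for C3ar1. C5ar1 in neutrophil wells ranged from -0.076 (without FibΔZeb1 replicate 2) to 0.70 when plates were left out, and C3 in epithelial wells from -0.95 (without FibΔZeb1 replicate 4) to 0.88 (without FibCtrl replicate 1). The causes were not tested.

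With the replicate block, 0 members were called in each of the 4 genotype comparisons, and C3 in epithelial wells was 0.040. The block changed no member's call. It raised the genes called in fibroblast wells from 1 to 14. Same-numbered plates correlated at -0.0035 to 0.086 in macrophage wells and at -0.24 to 0.50 in neutrophil wells, so pairing by number was not seen in every pair there. In fibroblast wells they correlated at 0.15 to 0.31, and 2 pairs are too few to tell whether the number pairs the plates.

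Between mesothelial and fibroblast wells, 1 member was called, against 2 with DESeq2, 2 without the filter, 0 without the plate as a block and 0 to 0 when plates were left out. Over all genes, 43 were called there, against 104, 262 and 91 in the same order, 121 with classes from marker sums and 0 to 27 when plates were left out. No filter also gave 3886 genes against 1838 between macrophage and fibroblast wells, 722 against 317 between matrix and contractile wells (195 without FibCtrl replicate 1) and 1669 against 958 between neutrophil and macrophage wells (634 without FibCtrl replicate 4, and 558 with at least 250 transcripts per well). C4b between mesothelial and fibroblast wells ranged from -1.48 to 0.65, and C1qb between epithelial and fibroblast wells from -0.33 to 0.14, when plates were left out. The other counts of members called between classes stayed within 1.5 times. Of 372 log2 values between classes, 352 kept direction and side of the threshold. RLE scaling moved the median of all genes between epithelial and fibroblast wells from 0.11 to 0.18, with the same members called.

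Thinned to 500 transcripts in place of 1000, 14 of 18 shares of wells moved, each to a lower value. They became 61.9% (matrix) and 25.8% (neutrophil) for C3, 9.52% (matrix) for C4b, 31.6% (mesothelial), 19.0% (matrix) and 11.6% (macrophage) for Cfb, and 82.5% (matrix), 53.4% (contractile) and 13.7% (neutrophil) for Serping1. In macrophages they were 28.3% for C1qa, 31.2% for C1qc, 20.8% for C3ar1 and 14.5% for C5ar1, which was 25.4% in neutrophils. The restrictions to matrix, contractile or largest-cluster wells, and those without the smallest macrophage or epithelial cluster, were chosen after seeing the data. The alternatives for monocytes were not run, nor those with at least 10 wells of each class for mesothelial and for matrix against contractile wells, where too few plates were left.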

Other observations

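Some complement genes outside the members stood out in particular classes. Clu was 2036 CPM in mesothelial wells (2829 transcripts), 375 CPM in epithelial and 124 CPM in matrix fibroblast wells. Cr2, the receptor for C3 fragments on B cells, was 720 CPM in B cell wells (383 transcripts). Cfp (properdin) was 940 CPM in dendritic and 562 CPM in macrophage wells. Fcna (ficolin A) was 94.3 CPM in macrophage wells. These are sums over plates and were not tested.

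Wells outside every class held 18.8% of the Serping1, 13.8% of the C4b, 11.6% of the C3 and 8.84% of the Cfb transcripts, and 2.43% to 4.71% of those of the C1q and receptor genes. They are 492 wells of unnamed clusters and the 34 fibroblast wells removed for Ptprc or Epcam, and entered no comparison.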
